A study of Homo sapiens with 6 samples.

Results

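Aminoacyl-tRNA synthetases are the enzymes that attach each amino acid to its tRNA. The 35 synthetase genes described here were chosen by their symbols, as 19 cytosolic and 16 mitochondrial genes, among the 21850 genes listed in the count table. RNA was sequenced from the human myeloma line MM.1S at day 3 after infection with a virus for a short hairpin RNA. The shPRKCN group (3 libraries) received a hairpin against PRKCN, a serine/threonine kinase of the protein kinase D family whose current symbol is PRKD3, and the shNT group (3 libraries) received a scramble hairpin. Both groups therefore carried a viral hairpin, and the labels give the shNT cells as wild type at PRKCN. All shPRKCN libraries carry 1 hairpin name in their labels, so an effect of PRKCN depletion cannot be told apart from one particular to that hairpin. Nothing in the labels says that the libraries of a group came from separate cultures, and p-values then measure only the spread between these libraries.

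Each synthetase recognises 1 amino acid, or 2 in the case of the bifunctional EPRS1, and the tRNAs that carry it. Cytosolic enzymes supply the ribosomes that translate nuclear messages, and a separate nuclear-encoded set supplies the ribosomes inside mitochondria. GARS1 and KARS1 make enzymes for both compartments and are counted here with the cytosolic genes by their symbols. Mitochondria obtain their glutaminyl-tRNA through an amidotransferase that converts the misacylated glutamyl form. Several cytosolic synthetase genes are known targets of ATF4, the transcription factor of the integrated stress response, which binds C/EBP-ATF elements near their starts. Plasma cells and myeloma cells, which make immunoglobulin at high rates, are known for a heavy demand on amino acid supply and protein synthesis.

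The start regions of the synthetase genes are described first, because a shared element lies in several of those with the lowest values. They were searched after the fold changes below had been computed. RefSeq windows (GRCh38.p14) from 250 bases before to 50 bases after a transcript start were at hand for 30 of the 35 genes, and LARS1, VARS1, YARS1, AARS2 and VARS2 have none here. For the 9 genes with more than 1 window, the one listed first was searched. Its start was the outermost one of the gene in 26 genes, and lay inside it by 25 bases in EARS2, 269 in TARS1, 7007 in CARS2 and 11073 in FARS2. TGATGNAA, a form of the C/EBP-ATF element, was searched on both strands, and it occurs in 3.67% of 27305 windows of all genes and in 1.73% of 11035 windows of genes tested below. It was found in 7 of 30 synthetase windows (23.3%), with 6 among 16 cytosolic genes and 1 among 14 mitochondrial genes. The stretches of 30 bases that hold it are given 5′ to 3′ on the strand of the gene, with the match in capitals.
AARS1 (chr16:70289675-70289704, minus strand): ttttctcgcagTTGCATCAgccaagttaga
CARS1 (chr11:3057407-3057436, minus strand): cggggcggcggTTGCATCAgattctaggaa
IARS1 (chr9:92293692-92293721, minus strand): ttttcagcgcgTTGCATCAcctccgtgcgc
MARS1 (chr12:57488053-57488082, plus strand): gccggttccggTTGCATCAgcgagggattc
NARS1 (chr18:57621804-57621833, minus strand): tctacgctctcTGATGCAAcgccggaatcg
TARS1 (chr5:33440956-33440985, plus strand): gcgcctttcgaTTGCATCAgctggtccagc
YARS2 (chr12:32756076-32756105, minus strand): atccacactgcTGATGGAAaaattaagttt

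The 6 cytosolic genes hold the same 8 letters, forward in NARS1 and as the reverse complement in the other 5, while YARS2 holds a different letter at the free position. Counted from the first base of the transcript start used as 0, the match begins at -187 in AARS1, -13 in IARS1, -4 in MARS1, -2 in CARS1, 2 in TARS1 and 14 in NARS1. It therefore lies close to that start in each of them but AARS1. The TARS1 match is absent from the window of the outermost TARS1 start, and the window of a second GARS1 start, which was not counted above, also holds TGATGNAA. In YARS2 it begins at -197. Beside these, the E-box CACGTG was found in 4 synthetase windows (13.3%, against 7.44% of all windows, 10.1% of windows of genes tested and 12.5% of those of tested genes that rose), in IARS1, CARS2, EARS2 and MARS2. It is absent from the other CARS2 window, while the other EARS2 window also holds it. CCAAT was found in 16 synthetase windows (53.3%, against 35.7% of all windows and 37.2% of windows of genes tested). A match describes letters in a window and does not show that a factor binds there.

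PRKD3, the targeted gene, had 1272, 1298 and 1216 CPM (counts scaled to a common library size by TMM) in shNT and 535, 491 and 527 CPM in shPRKCN libraries. The groups lay far apart, and the log2 fold change was -1.29 ± 0.034 (standard error; edgeR quasi-likelihood test, Benjamini-Hochberg adjusted p = 8.2e-43). The libraries held between 35625564 and 37730003 counts. All 9 plasma cell identity genes were detected, 6 of them lower in shPRKCN cells at an adjusted p under 0.05 and 1 higher. Among all genes tested, 27.8% were lower and 26.5% higher at that limit. IRF4 had a log2 fold change of -1.85, XBP1 of -1.28, TNFRSF17 of -1.13 and SLAMF7 of -0.97. Summed myeloid markers ran from 0.311 to 0.699 CPM and stromal markers from 0.0803 to 0.211 CPM over the 6 libraries. The 4 T cell markers summed to 10.7 to 12.01 CPM in shNT and 27.5 to 31.3 CPM in shPRKCN libraries, nearly all of it CD3E (10.9 and 28.8 CPM on average). CD3E was higher in shPRKCN cells, with a log2 fold change of 1.40 (edgeR, adjusted p = 7.5e-26), while CD3D and CD3G were at 0 in every shPRKCN library.

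Cytosolic synthetases were the more abundant set per length. In shNT cells, the mean FPKM (counts scaled by gene length and library total) of the 19 cytosolic genes ran from 9.91 for WARS1 to 97.2 for QARS1, with a median of 43.7. That of the 16 mitochondrial genes ran from 1.15 for FARS2 to 42.6 for IARS2, with a median of 7.62, and 10 cytosolic genes lay above the highest of them. IARS2 stood apart from the other mitochondrial genes, the next being TARS2 at 22.4 FPKM. The synthetases together took between 0.316% and 0.327% of the counts of a library.

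After PRKCN knockdown, 10 synthetase genes fell and 11 rose (adjusted p under 0.05), with most of the lower ones cytosolic and most of the higher ones mitochondrial. The limits for a call were 0.05 on the adjusted p together with 0.58 on the size of the log2 fold change. All 35 synthetases passed the filter on low counts and were tested, and NARS1 alone passed both limits, as lower in shPRKCN cells. Of all 13971 genes tested, 16.7% passed both limits, 10.6% as lower and 6.15% as higher. The share among the synthetases was 2.86%, and DESeq2 called the same number. At the adjusted p alone, 9 cytosolic genes fell, 4 rose and 6 did not pass, whereas 1 mitochondrial gene fell, 7 rose and 8 did not pass. Over all genes, 54.2% passed at the adjusted p alone, 27.8% as lower and 26.5% as higher. Cytosolic genes were therefore lower in 47.4% and higher in 21.1% of cases, and mitochondrial genes lower in 6.25% and higher in 43.8%. The shNT and shPRKCN libraries did not overlap for 10 cytosolic genes that were lower and 5 that were higher, and for 3 and 7 mitochondrial genes. Over all genes, 58.8% had groups that did not overlap, 29.8% as lower and 29% as higher. The median log2 fold change was -0.09 over the cytosolic and 0.10 over the mitochondrial genes, beside 0.0012 over all genes tested.

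**Figure D1:**
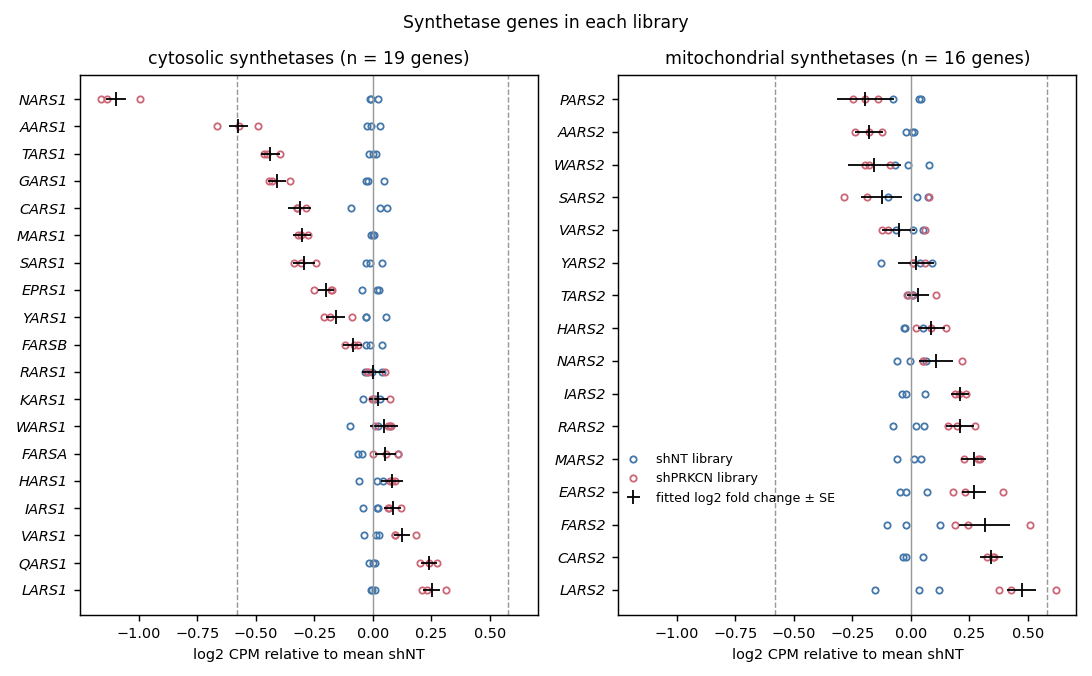
The log2 CPM of each synthetase gene in each of the 6 libraries, relative to the mean of the 3 shNT libraries, with the fitted log2 fold change and its standard error in black and the limits of 0.58 on either side dashed. NARS1 alone lies past the lower limit, and most of the other genes that pass at the adjusted p alone lie well inside it, with cytosolic genes mainly on the left and mitochondrial genes mainly on the right.

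NARS1, which charges asparagine, had 147, 146 and 149.9 CPM in shNT and 66.1, 67.2 and 74.2 CPM in shPRKCN libraries. The mean fell by 53.2%, the lowest value of the set, and the log2 fold change was -1.10 ± 0.042 (edgeR, adjusted p = 1e-33). AARS1, the alanine enzyme, had 182, 178 and 175 CPM in shNT and 119.9, 127 and 113 CPM in shPRKCN libraries. Its groups did not overlap, and its log2 fold change of -0.57 ± 0.039 (adjusted p = 9.4e-21) ended just inside the fold limit. It passed that limit without shNT 3 (-0.59) and without shPRKCN 2 (-0.62), so that 2 cytosolic genes were then called. The NARS1 gene lies on chromosome 18 and AARS1 on chromosome 16, and both hold the element shown above.

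TARS1, the threonine enzyme, had 115, 114 and 112 CPM in shNT and 86.4, 83.2 and 82.3 CPM in shPRKCN libraries, a log2 fold change of -0.44 ± 0.041 (adjusted p = 9.8e-15). GARS1, the glycine enzyme of both compartments, had 154, 153 and 162 CPM in shNT and 116, 122 and 115 CPM in shPRKCN libraries, with -0.41 ± 0.039 (adjusted p = 1.4e-14). CARS1, the cysteine enzyme, had 64.3, 59.1 and 65.8 CPM in shNT and 50.3, 51.7 and 50.3 CPM in shPRKCN libraries, with -0.31 ± 0.049 (adjusted p = 1.2e-07). In all 3 genes every shPRKCN library was below every shNT library, and the RNA fell by 26.1%, by 24.7% and, in CARS1, fell by 19.5%. The methionine enzyme MARS1 (-0.30), the serine enzyme SARS1 (-0.29), EPRS1 for glutamate and proline (-0.20) and the tyrosine enzyme YARS1 (-0.16) also fell. EPRS1 is the most abundant of these per length, at 70.8 FPKM in shNT cells.

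At the other end, LARS1, the leucine enzyme, had 159, 158 and 157 CPM in shNT and 183, 186 and 196 CPM in shPRKCN libraries, a log2 fold change of 0.25 ± 0.037 (adjusted p = 2.4e-08). QARS1, the glutamine enzyme, had 238, 240.4 and 242 CPM in shNT and 284, 290.1 and 276 CPM in shPRKCN libraries, with 0.24 ± 0.035 (adjusted p = 1.4e-08). VARS1, the valine enzyme, had 276, 286 and 289 CPM in shNT and 303, 322 and 303 CPM in shPRKCN libraries, with 0.12 ± 0.035 (adjusted p = 0.0017). These 3 genes were higher in every shPRKCN library than in any shNT library. QARS1 was already the most abundant synthetase per length in shNT cells (97.2 FPKM). IARS1, the isoleucine enzyme, had 201, 202 and 193 CPM in shNT and 216, 209 and 208 CPM in shPRKCN libraries, with 0.09 ± 0.036 (adjusted p = 0.039). This is the highest adjusted p of the 13 cytosolic genes that passed, and the call was lost without shNT 1 (adjusted p = 0.064), shNT 3 (0.154) or shPRKCN 1 (0.167). HARS1, the histidine enzyme, had 63.6, 59.3 and 62.6 CPM in shNT and 65.5, 65.0 and 66.1 CPM in shPRKCN libraries, with 0.08 ± 0.047 (adjusted p = 0.12). The 5 cytosolic genes left, FARSB (-0.09) and FARSA (0.05) for phenylalanine, RARS1 (0.00) for arginine, KARS1 (0.02) for lysine and WARS1 (0.05) for tryptophan, did not pass the test either.

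The mitochondrial genes covered a narrower span, from -0.19 to 0.47 on the log2 scale. LARS2, which charges leucine in mitochondria, had 32.2, 30.3 and 26.6 CPM in shNT and 39.8, 45.5 and 38.4 CPM in shPRKCN libraries, a log2 fold change of 0.47 ± 0.062 (adjusted p = 8e-10). CARS2, for cysteine, had 47.3, 44.5 and 45.0 CPM in shNT and 58.2, 57.0 and 58.3 CPM in shPRKCN libraries, with 0.34 ± 0.050 (adjusted p = 1.4e-08). Both were higher in all shPRKCN libraries, by 38.9% and 26.8%. FARS2, for phenylalanine, had 8.10, 8.95 and 7.64 CPM in shNT and 9.35, 11.7 and 9.72 CPM in shPRKCN libraries, with 0.32 ± 0.109 (adjusted p = 0.011). This gene had the lowest FPKM of all synthetases, and its call was lost without shNT 3 (adjusted p = 0.060) and without shPRKCN 2 (0.131).

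EARS2, for glutamate, had 50.6, 53.8 and 49.7 CPM in shNT and 60.3, 67.4 and 58.2 CPM in shPRKCN libraries, with a log2 fold change of 0.27 ± 0.051 (adjusted p = 6.3e-06). MARS2, for methionine, had 41.4, 42.3 and 39.4 CPM in shNT and 50.02, 50.3 and 47.9 CPM in shPRKCN libraries, with 0.27 ± 0.052 (adjusted p = 1e-05). The arginine enzyme RARS2 (0.21) and the isoleucine enzyme IARS2 (0.21) complete the 7 mitochondrial genes that rose, and none of the 7 had overlapping groups. NARS2 (0.11), HARS2 (0.09), TARS2 (0.03) and YARS2 (0.02), for asparagine, histidine, threonine and tyrosine, did not pass.

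AARS2, for alanine, was the 1 mitochondrial gene that fell, with 32.6, 32.0 and 32.8 CPM in shNT and 29.8, 27.5 and 28.6 CPM in shPRKCN libraries and a log2 fold change of -0.18 ± 0.059 (adjusted p = 0.0078). This call was lost in limma on log2(FPKM + 1) (adjusted p = 0.052), and without shPRKCN 1 SARS2 passed as well (0.035), which makes 2 lower genes. PARS2, for proline, had 7.11, 7.07 and 6.54 CPM in shNT and 6.03, 5.81 and 6.27 CPM in shPRKCN libraries, with -0.19 ± 0.123 (adjusted p = 0.18). WARS2, for tryptophan, had 7.96, 8.27 and 8.79 CPM in shNT and 7.36, 7.83 and 7.27 CPM in shPRKCN libraries, with -0.16 ± 0.113 (adjusted p = 0.25). PARS2 and WARS2 were lower in every shPRKCN library, yet their counts lie between 216 and 329 in a library and neither passed the test. SARS2, for serine, had 16.8, 16.2 and 14.9 CPM in shNT and 16.8, 14.01 and 13.1 CPM in shPRKCN libraries, with -0.13 ± 0.087 (adjusted p = 0.22). VARS2, for valine, had 23.1, 21.3 and 22.4 CPM in shNT and 20.8, 23.2 and 20.4 CPM in shPRKCN libraries, with -0.05 ± 0.070 (adjusted p = 0.55). The groups of SARS2 and VARS2 overlapped, and both share exon bases on their own strand with another gene. In GENCODE 29, 46.2% of the SARS2 exon bases lie in an annotated readthrough gene, and 22% of the VARS2 exon bases lie in GTF2H4. The counts of these 2 genes are therefore less certain.

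**Figure D2:**
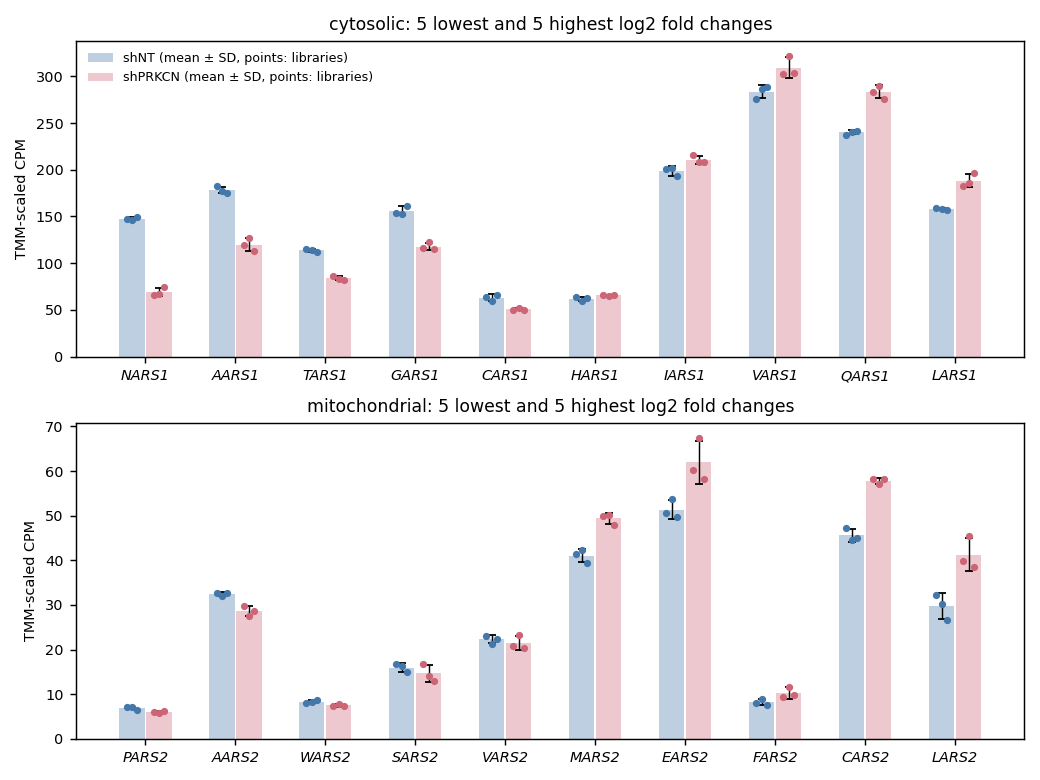
CPM (TMM-scaled) of the 5 genes with the lowest and the 5 with the highest log2 fold change in each compartment, as bars for the mean of 3 libraries, error bars for the SD and points for single libraries. NARS1 fell from 148 to 69.2 CPM, the widest gap of any gene shown, and LARS2 rose from 29.7 to 41.2 CPM.

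Summed over its 19 genes, the cytosolic set had 2701 ± 12.6 CPM (SD, n = 3) in shNT and 2499 ± 25.8 CPM (n = 3) in shPRKCN cells, so that it fell by 7.50%. Without NARS1 the sum went from 2553 to 2429.5 CPM and fell by 4.85%. The mitochondrial sum went the other way, from 576 ± 11.4 CPM (n = 3) to 646 ± 15.6 CPM (n = 3), 12.3% more. NARS1 (-78.6 CPM), AARS1 (-58.6), EPRS1 (-45.2) and GARS1 (-38.6) gave the largest losses to the cytosolic sum, and QARS1 (43.4 CPM) and LARS1 (30.2) the largest gains. Within the mitochondrial sum, IARS2 gave the largest gain, at 23.5 CPM. In bulk RNA, fewer cells of a kind and less RNA per cell cannot be told apart.

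To compare the compartments without any scaling between libraries, the ratio of the cytosolic to the mitochondrial gene for the same amino acid was taken within each library, for 17 pairs over 16 amino acids. EPRS1 enters with EARS2 and with PARS2, and FARSA and FARSB each with FARS2, so those pairs share a gene. The ratio was lower in shPRKCN cells in 15 pairs and higher in 2, with a median difference of -0.22 on the log2 scale. The groups did not overlap in 9 of the lower pairs and in both higher pairs. Over all single genes tested, 58.8% had groups that did not overlap. The share for ratios of other gene pairs was not computed, so the count is a description only. With 3 libraries against 3, the 2-sided exact permutation test cannot give a p under 0.1, and the pairs without overlap all reached that value (0.155 after Benjamini-Hochberg adjustment over the 17 pairs).

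NARS1 to NARS2 changed most. The per-length ratio was 7.52, 6.88 and 7.38 in shNT and 3.13, 2.84 and 3.51 in shPRKCN libraries, a log2 difference of -1.20. CARS1 to CARS2 had ratios of 1.73, 1.69 and 1.86 in shNT and 1.10, 1.15 and 1.10 in shPRKCN libraries, a difference of -0.65 in which the cytosolic gene fell and the mitochondrial gene rose. MARS1 to MARS2 had 3.44, 3.39 and 3.63 in shNT and 2.31, 2.35 and 2.39 in shPRKCN libraries, a difference of -0.57 with both genes contributing. For the alanine pair the difference was -0.40 with both genes lower. The pairs for valine (0.18) and tryptophan (0.21) were those with a higher ratio. HARS1 to HARS2 differed by -0.0020 and EPRS1 to PARS2 by -0.0059, and in both the libraries of the groups overlapped.

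**Figure D3:**
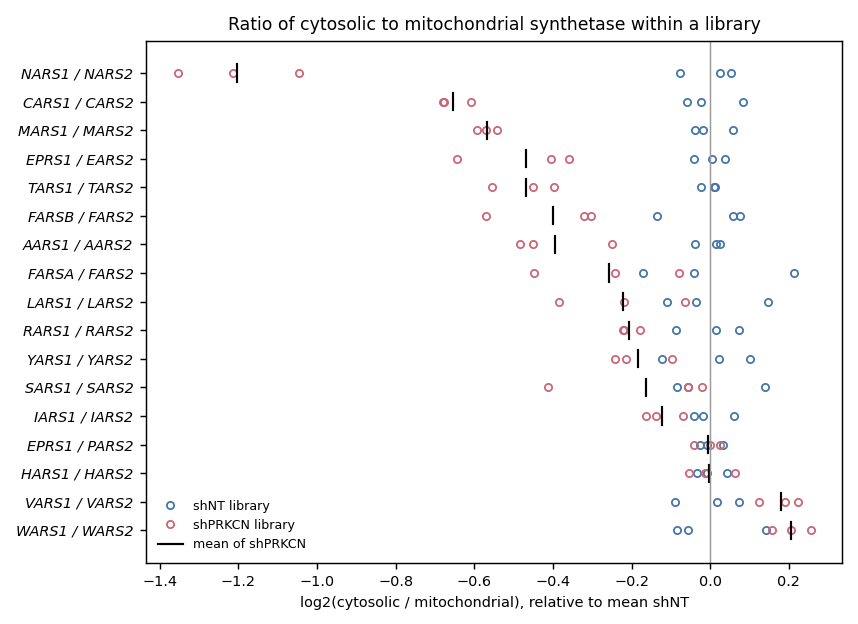
The log2 ratio of each cytosolic gene to its mitochondrial counterpart in each library, relative to the mean of the 3 shNT libraries, with blue points for shNT libraries, red points for shPRKCN libraries and a black bar for the shPRKCN mean. The means run from -1.20 for the asparagine pair to 0.21 for the tryptophan pair, with 15 of 17 below 0.

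The cytosolic genes also differed among themselves, and the counts given here stand beside 27.8% lower and 26.5% higher over all genes tested. Of the 12 linked to ATF4 in earlier knowledge, 9 fell, 2 rose (IARS1 and LARS1) and WARS1 did not pass, with a median log2 fold change of -0.30. Of the 7 others (FARSA, FARSB, HARS1, KARS1, QARS1, RARS1 and VARS1), none fell by edgeR (0 also by DESeq2, and 1, FARSB, at an unadjusted p under 0.05), 2 rose and 5 did not pass, with a median of 0.05. FARSB did pass as lower when shNT 3 (edgeR, adjusted p = 0.039) or shPRKCN 2 (0.038) was left out. With all libraries, the 9 cytosolic genes that fell are all in the first list. That list was put together with these results known and gives no independent support. Of the 10 genes of that list with a promoter window, 6 (60%) hold the element printed above, and of the 6 others with a window, 0 do. This contrast rests on the same list, and ATF4 binds elements of this kind, so it gives no independent support either. Of the 6 that hold it, 5 fell, with NARS1 lowest at -1.10, and IARS1 had 0.09, the call that was lost without single libraries. Over all genes tested, the element was in 2.13% of windows of genes that fell and in 1.35% of those that rose.

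In the cytosol, 7 of the enzymes (EPRS1, IARS1, KARS1, LARS1, MARS1, QARS1 and RARS1) are bound in the multisynthetase complex, and the other 12 genes make free enzymes or subunits. Of the 7 genes of the complex, 2 fell (28.6%) and 3 rose (42.9%), with a median log2 fold change of 0.02. The shares over all genes tested were 27.8% and 26.5%, so the share that fell was near that of all genes. Of the 12 free ones, 7 fell (58.3%) and 1 rose (8.33%), with a median of -0.23. Among the 3 scaffold proteins that hold the complex together, AIMP2 rose by 0.26 on the log2 scale, AIMP1 fell by 0.17 on that scale and EEF1E1 had -0.06. MARS1 shares 355 exon bases, 5.05% of its own, with DDIT3 and 519, or 7.38%, with ARHGAP9, both on the opposite strand. DDIT3 fell with a log2 fold change of -1.03. Whether reads were counted by strand is not given in the sources used here, so reads of the shared bases cannot be assigned to 1 gene. HARS1 and HARS2 likewise share 437 exon bases on opposite strands, and their starts lie 85 bases apart. On its own strand, HARS2 also shares 152 exon bases (4.07%) with ZMAT2. Other genes that passed share opposite-strand exon bases too, among them EARS2 with UBFD1 (6.46%), AARS2 with TMEM151B (5.47%) and YARS1 with S100PBP (4.82%). The same uncertainty holds for them.

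The genes around the synthetases in the same process were described from lists. For comparison with their counts, 26.5% of all genes tested rose and 27.8% fell at the adjusted p. Past both limits, 6.15% rose and 10.6% fell. Of 4 mitochondrial charging partners, 3 rose and 0 fell by edgeR (0 also by DESeq2 and at an unadjusted p under 0.05), with a median log2 fold change of 0.28. MTFMT, which formylates the initiator methionyl-tRNA of mitochondria, had 15.8, 14.3 and 13.8 CPM in shNT and 19.2, 18.4 and 18.01 CPM in shPRKCN libraries, a log2 fold change of 0.34 ± 0.080 (adjusted p = 0.00020). The amidotransferase subunits GATB (0.31) and GATC (0.24) rose, and the third subunit gene, QRSL1, had 0.02 (adjusted p = 0.81). Of 10 mitochondrial translation factors, 6 rose and 2 fell. GFM2, a factor that splits mitochondrial ribosomes for reuse, was the 1 of them past both limits, with 42.1, 41.5 and 42.5 CPM in shNT and 23.5, 21.7 and 23.8 CPM in shPRKCN libraries and a log2 fold change of -0.87 ± 0.059 (adjusted p = 4e-21). It moved against the direction of most genes of its list.

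Genes that make and deliver tRNA were split, where 26.5% of all genes tested rose and 27.8% fell. Past both limits, 6.15% rose and 10.6% fell. Of 20 genes of RNA polymerase III and its factors, which transcribe tRNA genes, 9 rose and 2 fell, and the subunit gene POLR3D passed both limits at a log2 fold change of 0.58. Of 16 genes of tRNA processing and export, 6 rose and 4 fell, the latter near the share of all genes. Of 6 tested genes of proofreading and special charging, 2 rose and 1 fell, and DTD2, which removes wrongly charged amino acids from tRNA, changed most (0.51). Of 6 tested cytosolic elongation factors, 3 rose and 1 fell, with EIF5A (0.31) changing most. The medians of these lists lay between 0.06 and 0.10 on the log2 scale.

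The lists around ATF4 had lower medians than these, as had the plasma cell identity genes (-0.54). Beside the counts that follow, 27.8% of all genes tested fell and 26.5% rose at the adjusted p. Past both limits, 10.6% fell and 6.15% rose. Of 13 genes of the integrated stress response, 7 fell and 3 rose, with a median log2 fold change of -0.27. ATF4 itself had 383, 391 and 388 CPM in shNT and 312, 327 and 323 CPM in shPRKCN libraries, a log2 fold change of -0.27 ± 0.034 (adjusted p = 1.4e-10). The genes of this list past both limits were PPP1R15A (-1.04), a phosphatase subunit that restores translation, the transcription factors DDIT3 (-1.03) and CEBPB (-0.58), and EIF2AK3 (-0.75), the kinase PERK. EIF2AK4 and GCN1, a kinase that senses uncharged tRNA and its activator, rose by 0.18 and 0.17 on the log2 scale. Of 19 tested ATF4 target enzymes and transporters, 16 fell and 0 rose by edgeR (0 also by DESeq2 and at an unadjusted p under 0.05), with 6 past both limits and a median of -0.49. The lowest were CHAC1 (-3.02), a glutathione-degrading enzyme, PHGDH (-1.68) and PSAT1 (-1.18), enzymes of serine synthesis, and SLC7A11 (-1.34), a cystine transporter.

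Asparagine synthetase, ASNS, which makes the amino acid that NARS1 charges, was looked up after the values were seen. It had 1.87, 2.07 and 2.86 CPM in shNT and 2.87, 1.78 and 2.50 CPM in shPRKCN libraries, and the groups overlapped (log2 fold change 0.07 ± 0.217, adjusted p = 0.81). At these low counts, a change smaller than 2 standard errors was not detectable.

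WARS1 is known as a gene that interferon-γ induces, and it had 32.8, 29.1 and 31.6 CPM in shNT and 32.9, 32.6 and 31.3 CPM in shPRKCN libraries. These libraries overlapped, with a log2 fold change of 0.05 ± 0.059 (adjusted p = 0.50). Of 10 other tested genes that interferon-γ induces, 5 rose and 2 fell, beside 26.5% and 27.8% of all genes tested. The guanylate-binding protein genes GBP4 (1.96) and GBP1 (0.80) were higher and GBP2 (-0.66) was lower past both limits.

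**Figure D4:**
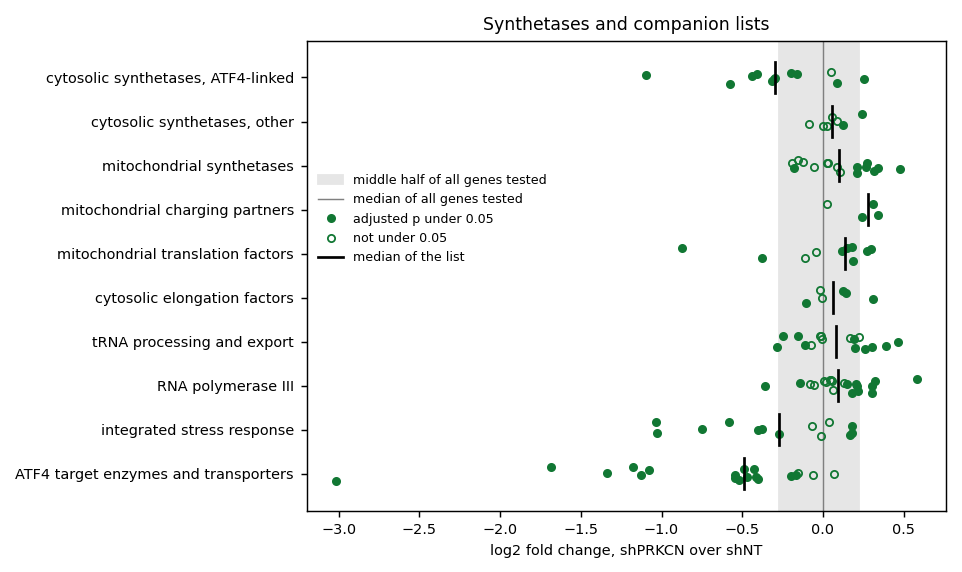
The log2 fold change of each gene (points, filled at an adjusted p under 0.05) in 3 synthetase lists and 7 companion lists, with a black bar for the median of each list and grey shading for the middle 50% of all genes tested. Of the 10 lists drawn, the ATF4-linked cytosolic synthetases (-0.30), the integrated stress response genes (-0.27) and the ATF4 target enzymes (-0.49) have the lowest medians, and the mitochondrial charging partners (0.28) the highest. Among lists not drawn, the plasma cell identity genes had a lower median than any of these (-0.54). The T cell markers (0.51, 2 genes tested) and myeloid markers (0.53, 1 gene tested) had higher ones. The ATF4-linked synthetase list was put together with these results known, so its median gives no independent support.

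Level and length were set beside the changes as a description. Across the 19 cytosolic genes, which share the same libraries, Spearman's rho of the log2 fold change was -0.074 with FPKM in shNT cells and -0.016 with gene length. Across the 16 mitochondrial genes it was 0.22 and 0.59. For mapping, no synthetase shared more than 0.451% of its 50-base transcript stretches with any single locus that does not overlap it. Shares over several such loci were not summed. Overlapping genes shared up to 39.5% of the stretches of SARS2 and 20.5% of those of VARS2.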

How the data were processed

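RNA-seq of 6 MM.1S libraries was used, with groups taken from the treatment labels. The authors deposited raw counts per gene, without normalization, and FPKM values of the same genes, scaled by library total and gene length. The submitters' processing notes name FastQC, HISAT2, StringTie and GRCh38.p14. The counting program, annotation and strand setting are not given in the sources used here. Depth was 35625564 to 37730003 counts, and 3 counts were taken as the floor.

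After TMM scaling, the quasi-likelihood test of edgeR 4.0.16 under R 4.3.3 was run over the 13971 genes that filterByExpr retained, with Benjamini-Hochberg adjustment over them. The limits were an adjusted p of 0.05 and, as in the paper's methods, a log2 fold change of 0.58. Standard errors are the fold change over the root of F. On simulated counts for this comparison (13798 genes), edgeR recovered 97% of genes planted at a log2 fold of 0.8 and 100% at 1.5, with 2 false calls. Both limits were applied there, so calls at the adjusted p alone and smaller changes were not checked. Levels between genes used FPKM. Ratios of gene pairs were compared by exact permutation over libraries. Alternatives were DESeq2 1.42.0, other scalings and filters, log2 FPKM with a pseudocount of 1 or 0.1 tested in limma 3.58.1, the replicate number as a block, and leaving out each library. Sequences came from RefSeq windows and overlaps from GENCODE 29 (Python 3.11.15).

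The synthetases, the companion lists and the tests were chosen with earlier results of these data known. All 35 synthetases are named. Values per library are given for those past both limits and for the 5 lowest and 5 highest of each compartment. From each companion list, genes past both limits are named, at most 4 by size, or else the gene with the largest change, and any further gene was chosen after its values were seen. AARSD1 and COL1A2 of the lists are not analysed here. The gene that this rule names for tRNA processing and export is not reported here.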

Additional observations from a re-analysis of the deposited data

How the results depend on the processing

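Of 560 values of single synthetases under the alternatives, 542 kept their direction and their side of the adjusted p, 9 lost the call, 5 gained one and 4 turned in sign. The turned values were all near 0: RARS1 at -0.014 without shNT 3 and -0.016 without shPRKCN 3, TARS2 at -0.0051 without shPRKCN 2 (its values without 1 library run from -0.0051 to 0.062) and YARS2 at -0.033 without shNT 2. Of 119 values of gene pairs, 5 turned, with HARS1 to HARS2 (from -0.034 to 0.024 over libraries left out) at 0.019, 0.0039 and 0.024 without shNT 3, shPRKCN 2 and shPRKCN 3, and EPRS1 to PARS2 (from -0.021 to 0.011) at 0.011 without shNT 3 or shPRKCN 3. Lost calls were IARS1, FARS2 (also adjusted p = 0.103 and 0.114 under limma) and AARS2 (adjusted p = 0.052 under limma on log2(FPKM + 1), which leaves 0 mitochondrial genes lower). Calls gained as lower by edgeR were FARSB without shNT 3 (adjusted p = 0.039) or shPRKCN 2 (0.038), and SARS2 without shPRKCN 1. Those gained as higher were FARSA without shNT 3 (edgeR, adjusted p = 0.047) and HARS1 under limma with the FPKM filter (0.028).

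With no fold limit, 9 cytosolic genes were lower and 4 higher, 1 mitochondrial gene lower and 7 higher, and 3877 genes of all lower and 3700 higher. Limma on log2(FPKM + 1) called 648 genes lower and 315 higher past both limits, or 635 and 310 with the FPKM filter, beside 1475 and 859 by edgeR, and gave a cytosolic median of -0.062 in both fits. With a pseudocount of 0.1, limma called 1262 lower and 796 higher and gave a cytosolic median of -0.066, and library totals alone gave -0.067. The cause was not tested. Leaving out each library in turn, cytosolic genes past both limits and lower ran from 1 to 2, mitochondrial genes lower at the adjusted p from 1 to 2 (SARS2 joined without shPRKCN 1, adjusted p = 0.035), and the mitochondrial median from 0.071 to 0.129 (without shPRKCN 1). Every scaling left the median of all genes within 0.021 of 0.

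Same-numbered libraries did not deviate together (correlations of -0.059, -0.020 and -0.016, and 0 of 6 libraries closest to their own number). With the replicate block the counts past both limits were 1 cytosolic gene, 1463 of all genes lower and 854 higher, and 3 rather than 4 cytosolic genes were higher, since IARS1 had an adjusted p of 0.070. Depth limits the mitochondrial genes most: PARS2, WARS2 and FARS2 have standard errors of 0.123, 0.113 and 0.109 on the log2 scale.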
